A study of Mus musculus with 13 samples.

Results

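Rab GTPases are small guanine nucleotide-binding proteins that direct vesicle traffic, and the acetylation of histone H3 known as H3K27ac was described at their genes in mouse bone marrow-derived macrophages. H3K27ac marks active promoters and enhancers, and it measures chromatin, not RNA or protein. Members were chosen by symbol alone, Rab followed by a number and at most 1 letter and 1 further digit. This rule took 59 protein-coding genes, of which 55 carried at least 1 region, among 14980 protein-coding genes with a region. Rab25, Rab27b, Rab40b and Rab9b had none. The 55 genes held 153 of the 40691 regions, 41 of them over a start window (250 bases before to 50 bases after an annotated start site), 75 elsewhere in a gene body and 37 outside the gene. Among them, 53 genes and 141 regions passed the filter on low values and were tested, and Rab36 and Rab39b did not pass it. A gene's value is the sum of the deposited signal over its regions, so values of different genes are not comparable as levels. Rab regions had a median width of 3825 bp, against 3062 bp for all regions, and 19 of them also belonged to another gene.

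All cells were of strain 129S6/SvEvTac and genotype IL10-/-RAG2-/-, so every group, the untreated one included, lacked Rag2 and made no IL-10 of its own. Marrow precursors were grown for 5 days in medium conditioned with M-CSF, the macrophage growth factor, and no source used here gives the age of the animals. Cells were left untreated, or received 1 ng/mL of LPS (lipopolysaccharide of bacteria) for 195 min, either alone, with the anti-inflammatory cytokine IL-10 throughout (continuous IL-10), or with IL-10 added for the final 30 min (late IL-10). The labels give 1 ng/mL for LPS and again for LPS and IL-10 together, and no separate dose for late IL-10. Each group had 3 libraries, numbered by replicate, from 3 independent macrophage pools. Whether the pools came from separate animals is not given, so p-values measure the spread between these pools.

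A Rab protein cycles between a GDP-bound form in the cytosol and a GTP-bound form on a membrane, where it recruits the effectors that move, tether and fuse vesicles. Exchange factors load it with GTP, GTPase-activating proteins end the active state, and GDP dissociation inhibitors take it off the membrane. In macrophages, Rab proteins set the order of steps by which a phagosome matures, surface receptors recycle and newly made cytokines leave the cell.

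The sequences upstream of 4 genes are shown. The region over their start window changed with LPS, downward at Rab31 and upward at Rab10, Rab12 and Rab32. The centres of these wide regions lay 2.49, 15.7, 3.85 and 6.95 kb into the gene, in that order. The changes are therefore not placed at the runs shown. Start-window regions also rose at Rab8a and fell at Rab3a, Rab40c and Rab43, whose sequences are not printed. Each run holds the 250 bases before the RefSeq start site in GRCm38.p6, the assembly of the mm10 build, 5′ to 3′ on the gene's strand. Capitals mark matches to a kB-like motif, GGGA and CC with any 4 bases between them, searched on both strands.
Rab31, chr17:65772753-65773002, minus strand: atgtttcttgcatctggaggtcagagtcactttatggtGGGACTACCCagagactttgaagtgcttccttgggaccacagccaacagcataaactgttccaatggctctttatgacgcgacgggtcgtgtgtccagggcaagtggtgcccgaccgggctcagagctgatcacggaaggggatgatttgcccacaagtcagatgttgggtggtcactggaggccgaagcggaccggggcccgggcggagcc
Rab10, chr12:3309970-3310219, minus strand: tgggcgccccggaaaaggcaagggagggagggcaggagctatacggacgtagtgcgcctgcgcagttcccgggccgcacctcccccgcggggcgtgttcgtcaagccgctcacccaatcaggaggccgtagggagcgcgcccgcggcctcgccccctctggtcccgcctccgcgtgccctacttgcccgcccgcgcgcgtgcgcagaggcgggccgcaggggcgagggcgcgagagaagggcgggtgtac
Rab12, chr17:66519671-66519920, minus strand: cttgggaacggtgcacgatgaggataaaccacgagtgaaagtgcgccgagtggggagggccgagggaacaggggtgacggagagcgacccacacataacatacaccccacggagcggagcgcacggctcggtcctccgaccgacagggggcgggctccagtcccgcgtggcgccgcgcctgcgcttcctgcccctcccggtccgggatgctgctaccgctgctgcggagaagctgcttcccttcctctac
Rab32, chr10:10558208-10558457, minus strand: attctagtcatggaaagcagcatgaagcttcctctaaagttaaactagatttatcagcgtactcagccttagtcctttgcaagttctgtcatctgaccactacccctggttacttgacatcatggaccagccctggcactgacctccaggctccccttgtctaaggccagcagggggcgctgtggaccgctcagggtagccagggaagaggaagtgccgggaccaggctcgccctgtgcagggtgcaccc

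The Rab31 run holds 1 kB-like match, from 212 to 203 bases before the start site, and a second match, GGGAGGAGCC, lies 33 to 42 bases after it. The windows of Rab10, Rab12 and Rab32 held none of the 4 motifs searched, kB-like, ISRE-like (GAAA, any 2 bases, GAAA), GAS-like (TTCNNNGAA) and AP-1-like (TGANTCA), and overlaps between motifs were kept. Of 60 Rab windows, which belong to 48 genes, 10 held a kB-like match (16.7%), against 20.7% of all 32851 windows of the same 300 bases. A GAS-like match was in 5 Rab windows (8.33% against 8.30%), an AP-1-like match in 3 (5.00% against 7.81%) and an ISRE-like match in 1 (1.67% against 3.44%). Rab windows held a median of 19.5 CG dinucleotides, against 7 in all windows. No window of Rab8a, Rab3a, Rab40c or Rab43, whose start-window regions also changed with LPS, held any of the 4 motifs. Matches are descriptions of letters, not of bound factors.

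The macrophage label was checked against 8 markers, among them Csf1r, Adgre1 and Itgam, and all 8 had regions, with summed values between 29479 and 49325 over the 12 libraries. Of 4 fibroblast markers, 3 had a region. Their summed values lay between 7.54 and 16.4 in untreated libraries and 399 and 8545 under LPS alone. They lay between 2204 and 11951 under continuous IL-10 and 2693 and 12968 under late IL-10. Pdgfra, a defining fibroblast gene, had no region or lay at the floor, and 1 of 2 tested markers rose with LPS. Of 3 tested T cell markers, 2 rose with LPS, while Cd3g, Cd8a and Zap70 had no region or lay at the floor. Of the 8 macrophage markers, 1 rose and 3 fell with LPS and none was called with either IL-10 schedule. Of 4 dendritic cell markers, 1 rose and 2 fell with LPS and 1 fell with continuous IL-10. Of 3 tested neutrophil markers, 1 rose and 1 fell with LPS, and 1 rose with each schedule, while S100a9, Mpo and Ly6g had no region or lay at the floor. No B cell marker of 3 tested was called, while Pax5 had no region or lay at the floor. Summed B cell values lay between 2509 and 3246 untreated and 1552 and 2046 under LPS alone. They lay between 1806 and 2561 under continuous IL-10 and 2016 and 3067 under late IL-10. For T cell markers the ranges were 315 to 501, 447 to 545, 157 to 409 and 668 to 955 in the same order. Summed neutrophil values lay between 663 and 1619.9 untreated, 1399 and 1867 under LPS alone, 1951 and 2317 under continuous IL-10, and 1213 and 1779 under late IL-10. Summed dendritic cell values lay between 5348 and 6395, 3872 and 9685, 2894 and 4819, and 3269 and 7138 in the same order. The part of these markers in the Rab results was not tested. The libraries held between 5149730 and 26922552 recovered reads, and between 19.7% and 29.9% of regions lay at the lowest value, 1 read. Replicate 3 of each group was the deepest library, and LPS library 3 correlated with LPS libraries 1 and 2 at 0.721 and 0.742 over regions, against 0.916 between those 2. Counts are therefore also given without replicate 3.

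LPS moved H3K27ac at Rab genes in both directions. Of the 53 genes tested, 10 rose (18.9%) and 10 fell (18.9%), where 14.2% of all 13482 genes tested were higher and 13.3% lower (limma on log2(value + 1), adjusted p under 0.05). The median log2 difference was 0.08 over Rab genes and -0.11 over all genes, and centring each library on its median would remove the latter shift. Without replicate 3 of every group, 14 Rab genes rose and 11 fell. Shares over all genes or regions were taken from the main limma fit at adjusted p under 0.05 alone. Counts from other fits, or at unadjusted p, have no such share beside them, here or below. The total of 20 was 13, 12 and 12 without untreated library 2, LPS library 1 and LPS library 2. Genes that rose and genes that fell were found in 5 of the 6 role groups, as the plot of LPS differences by role shows. The group of other or less settled roles held only a fall, that of Rab40c.

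**Figure D1:**
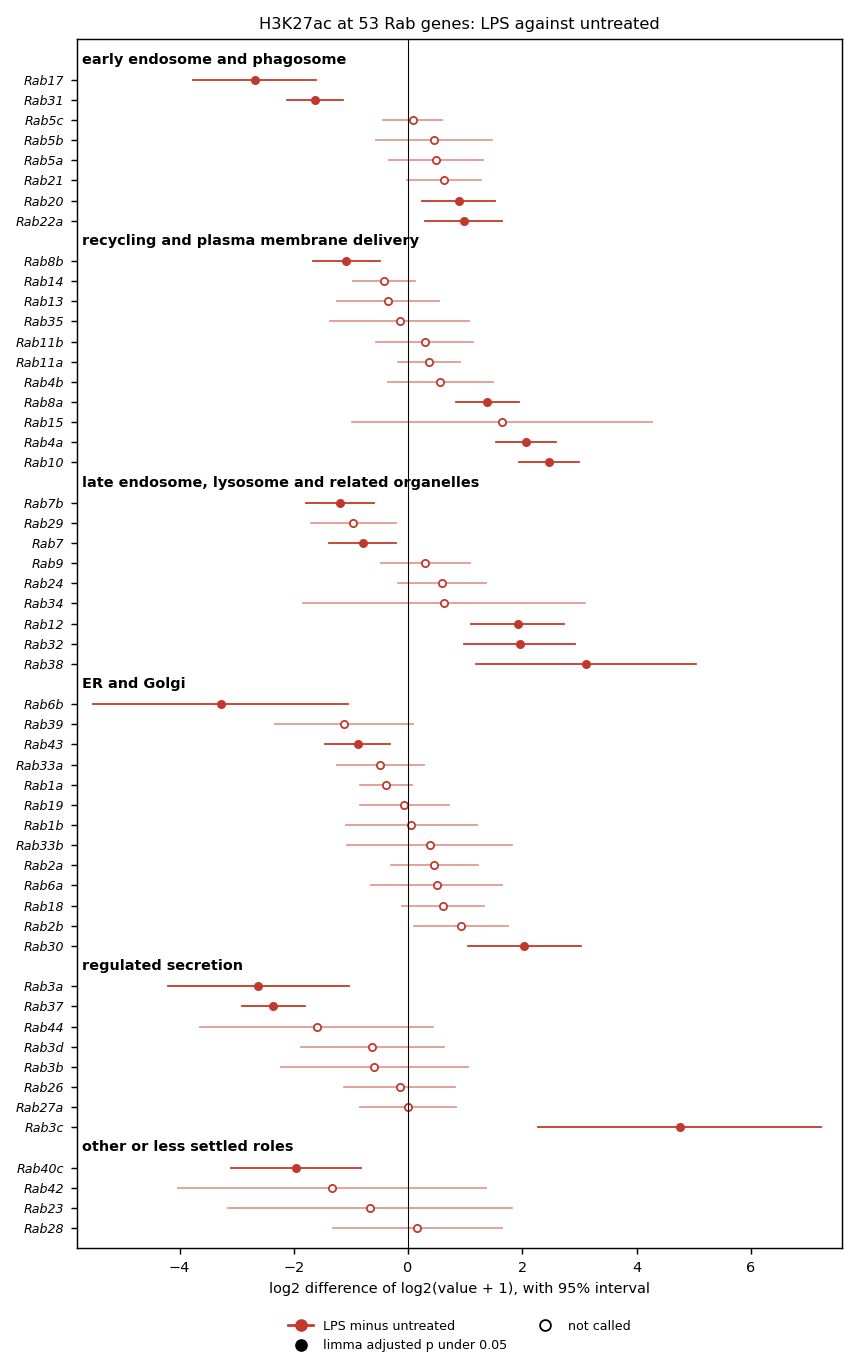
Log2 difference of H3K27ac (LPS minus untreated, on the log2(value + 1) scale) at the 53 Rab genes tested, grouped by role. Points are limma estimates from 3 libraries a group, bars are 95% intervals, filled points passed an adjusted p under 0.05 (10 to the right of 0 and 10 to the left) and open points did not.

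Among Rab genes of recycling and delivery to the plasma membrane, 3 of 11 rose and 1 fell. Rab10, which acts in transport of receptors and glucose transporters to the cell surface, had values of 642, 779 and 1014 in untreated libraries and 4502, 5393 and 3484 with LPS. Every LPS library was above every untreated one, and the log2 difference was 2.46 (SE 0.24, adjusted p = 1.96e-05 from limma). A region 23343 bp beyond the end of Rab10, chr12:3218808-3224085, rose from 16.97, 1.26 and 6.70 to 334, 178 and 132, a log2 difference of 4.88. Rab8a, which acts in exocytosis and recycling, had untreated values of 1492, 1319 and 2572 and LPS values of 3697, 5030 and 4824, with no overlap (1.38, adjusted p = 0.00145). That call rested on regions shared with Tpm4 and Hsh2d: with its unshared region alone, Rab8a differed by -0.01 (adjusted p = 0.995). The shared Hsh2d region, chr8:72176922-72192783, rose by 4.20. Its relative Rab8b went the other way, from 6283, 9116 and 5969 to 3577, 4404 and 2270, with every LPS library lower. The log2 difference of Rab8b was -1.09 (adjusted p = 0.00944), and the call was lost on leaving out untreated library 2 (adjusted p = 0.0513), with median centring (0.107), edgeR (0.122) and DESeq2 (0.0984). Rab11a, the standard marker of the recycling endosome, was at 666, 947 and 1079 without and 1025, 1213 and 1166 with LPS, groups that overlapped (0.36, adjusted p = 0.322). A region 10637 bp upstream of Rab11a was called lower with LPS. That call was lost on leaving out untreated library 1 or 2 or LPS library 2 or 3, highest adjusted p = 0.0928.

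At Rab4a, which governs rapid recycling from early endosomes, the value rose from 196, 195 and 237 to 740, 1037 and 888 (2.07, adjusted p = 6.40e-05). The rise came from a region outside the gene, chr8:123743157-123771404, 34442 bp from Rab4a and 79277 bp from Rhou on its other side. That region lay at the floor of 3 reads or fewer in all untreated libraries and at 730, 943 and 731 with LPS, at least 336-fold higher. A region at the floor is not shown to be free of H3K27ac, and such bounds hold for the deposited values alone. The region at the gene itself, chr8:123803588-123806746, went from 147, 165 and 211 to 5.90, 15.1 and 101. All LPS libraries were below the untreated ones there, but the difference of -2.95 did not pass the test (adjusted p = 0.0785). Counting only regions that overlap the gene, Rab4a differed by -2.95 (adjusted p = 0.106), so its direction depends on whether the distant region is taken as its own.

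Of 8 Rab genes of the early endosome and phagosome, 2 rose and 2 fell. Rab31, which acts between the trans-Golgi network and endosomes and on early phagosomes, fell from 3528, 4077 and 4256 to 1303, 1175 and 1355, a log2 difference of -1.63 (SE 0.22, adjusted p = 1.99e-04). The LPS libraries lay close together and far below the untreated ones. Rab17, best known from polarised epithelia, fell from 571, 538 and 398 to 49.2, 113 and 79.8 (-2.69, adjusted p = 0.00149) at its only region, 3328 bp upstream of the gene. The calls for both held without each library in turn. Rab20, a Rab gene of phagosome maturation, went from 1949, 2588 and 2587 to 3874, 6130 and 3452 (0.88, adjusted p = 0.0407). Its LPS libraries were all higher, but the call was lost on leaving out untreated library 1, 2 or 3 or LPS library 1 or 2 (adjusted p = 0.151, 0.0718, 0.0626, 0.0687 and 0.183). It also ended with median centring (0.140), edgeR (0.0793), DESeq2 (0.0519) and unshared regions alone (0.122). Rab5a, the master regulator of the early endosome, was at 481, 506 and 1234 without and 773, 760 and 1425 with LPS. Its groups overlapped and the difference of 0.49 did not pass the test (adjusted p = 0.384). Rab5a passed with DESeq2 (adjusted p = 0.0171) and without replicate 3 of every group (0.0424).

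Rab22a, which acts in sorting at early endosomes, showed parts that moved against each other. Its summed value went from 378, 373 and 670 to 883, 953 and 856, with no overlap (0.98, adjusted p = 0.0324), and the call was lost on leaving out untreated library 1 or 2 or LPS library 1 or 2 (adjusted p = 0.124, 0.116, 0.0797 and 0.108). Of its 5 regions, 2 in the gene body fell. That at chr2:173684739-173688569 went from 77.8, 101 and 69.1 to 1.97, 1.68 and 16.2 (-4.00, adjusted p = 0.00657). The other, chr2:173701405-173704557, fell by 3.40 (adjusted p = 0.0280), a call that was lost on leaving out untreated library 1 or 3 or LPS library 1 or 2 (adjusted p = 0.0723, 0.0784, 0.116 and 0.120). Another region, chr2:173676360-173680944, was at 569, 665 and 82.5 with LPS against 72.1, 101 and 2.09, and missed the threshold (3.48, adjusted p = 0.0501). Replicate 3 was the lowest of its group at that region in both states.

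**Figure D2:**
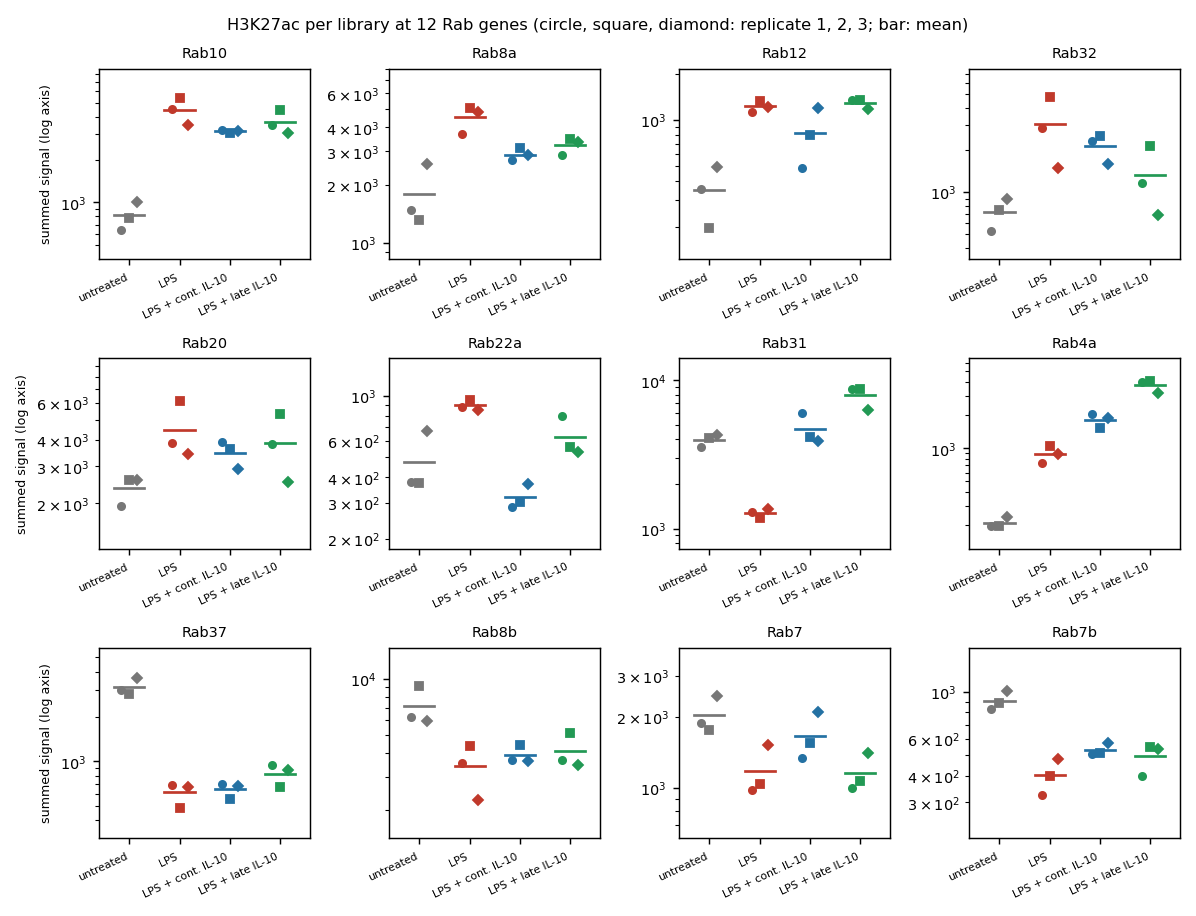
Summed H3K27ac signal (log axis) at 12 Rab genes in the 12 libraries, by group. Circles, squares and diamonds are replicates 1, 2 and 3, and bars are group means. Rab31 is lowest with LPS alone (1175 to 1355) and highest with late IL-10 (6277 to 8804), while Rab10 stays between 3078 and 5393 in every library that received LPS.

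Among 9 tested Rab genes of late endosomes, lysosomes and related organelles, 3 rose and 2 fell. Rab32, which acts in lysosome-related organelles and in the defence of phagosomes, rose from 530, 743 and 893 to 2900, 4769 and 1479 (1.95, SE 0.45, adjusted p = 0.00600). Rab12, a Rab gene of the degradation of recycling receptors, rose from 353, 195 and 493 to 1125, 1341 and 1218 (1.91, adjusted p = 0.00207). In both, every LPS library was above every untreated one and the call held without each library in turn. The start-window region of Rab12 carried that rise (2.09), while a weaker region 12035 bp upstream, chr17:66531785-66534438, fell to the floor. Rab38, close kin of Rab32, went from 54.4, 42.9 and 51.5 to 931, 724 and 120 (3.11, adjusted p = 0.0193). LPS library 3 was the lowest of its group, and the call was lost on leaving out untreated library 1 or 2 or LPS library 1 or 2 (adjusted p = 0.0524, 0.0588, 0.0954 and 0.0864). The Rab38 rise lay mainly in a region 17428 bp outside the gene, chr7:88509000-88516763, at the floor in untreated libraries and at 606, 447 and 77.9 with LPS, at least 158-fold higher. With regions overlapping the gene alone, Rab38 was not called (adjusted p = 0.313).

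Rab7, the main Rab gene of the late endosome and lysosome, went from 1882, 1762 and 2459 to 982, 1042 and 1529, with all LPS libraries lower (-0.79, adjusted p = 0.0436). The call was lost on leaving out untreated library 1, 2 or 3 or LPS library 1 or 2 (adjusted p = 0.0867, 0.0625, 0.127, 0.153 and 0.143), and with overlapping regions alone (0.0700). Rab7b, which acts between late endosomes and the trans-Golgi network and dampens Toll-like receptor signalling, fell from 828, 887 and 1011 to 325, 400 and 483 (-1.19, adjusted p = 0.00603). The Rab7b call held without each library. Rab29, of the same organelles, missed the threshold (-0.96, adjusted p = 0.0539) and passed with the replicate number as a block (adjusted p = 0.00792).

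Of 13 Rab genes of the endoplasmic reticulum and Golgi, Rab30 rose and Rab6b and Rab43 fell. Rab30, a Golgi Rab gene, rose from 175, 324 and 368 to 1165, 1748 and 716 (2.04, adjusted p = 0.00527), with no overlap and with the call held without each library. Rab43, which acts in transport through the Golgi, went from 1050, 1232 and 1552 to 592, 605 and 892 (-0.88, adjusted p = 0.0241). Its call was lost on leaving out untreated library 2 or 3 or LPS library 1 or 2 (adjusted p = 0.0595, 0.0711, 0.0917 and 0.0961). Rab6b, a neuronal relative of Rab6a, went from 145, 88.2 and 223 to 7.87, 6.72 and 45.4 (-3.28, adjusted p = 0.0302). Its call was lost on leaving out untreated library 1, 2 or 3 or LPS library 1 or 2, highest adjusted p = 0.115. Rab2b, of early secretory traffic, was 0.92 higher and passed only in some fits, among them the block (adjusted p = 0.0264).

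Rab1a, which moves cargo from the endoplasmic reticulum to the Golgi, was not called as a gene (-0.38, adjusted p = 0.213), yet its regions moved apart. The region over its start window stayed at 867, 1017 and 1140.5 without and 1169, 1396 and 1298 with LPS (0.36, adjusted p = 0.277). Upstream, 3 regions fell. The largest, chr11:20164552-20178718, 22694 bp before the gene, went from 924, 800 and 733 to 175, 108 and 144 (-2.54, adjusted p = 9.07e-05), and the others fell by 3.33 and 3.42. Within the gene, chr11:20218611-20223360 rose from 24.0, 1.26 and 4.19 to 346, 306 and 78.8 (4.94, adjusted p = 0.00193). Among Rab genes of regulated secretion, Rab3c rose and Rab3a and Rab37 fell, of 8 tested. Rab3c, of synaptic-type exocytosis, rose from 8.48, 16.4 and 3.77 to 480, 753 and 41.3 (4.75, adjusted p = 0.00758), with LPS library 3 far below the other LPS libraries. Rab37, a Rab gene of mast cell secretion, fell from 3005, 2820 and 3632 to 695, 487 and 674 (-2.36, adjusted p = 3.30e-05). That fall lay in regions shared with Cd300lf and Slc9a3r1, and its unshared regions differed by 0.41 (adjusted p = 0.558). Both regions of Rab3a were shared with neighbours, Pde4c, Ifi30, Mpv17l2 and Pik3r2. Rab3a went from 899, 841 and 1636 to 80.7, 103 and 627 (-2.62, adjusted p = 0.0169), and its call was lost on leaving out untreated library 3 or LPS library 1 or 2 (adjusted p = 0.0676, 0.0833 and 0.0759). Rab27a, which docks secretory lysosomes, had a difference of 0.00 (adjusted p = 1.00; 95% interval -0.85 to 0.85). A region in the Rab27a gene body was called higher with LPS. That call was lost on leaving out untreated library 2 or LPS library 1 or 2 (adjusted p = 0.114, 0.102 and 0.138). Rab40c, the substrate receptor of a ubiquitin ligase, fell from 1155, 1082 and 1265 to 205, 220 and 594 (-1.96, adjusted p = 0.0137), a call that was lost on leaving out LPS library 1 or 2 (adjusted p = 0.0634 and 0.0618).

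Per region, 20 Rab regions rose with LPS and 30 fell of 141 tested, where 16.5% of all regions were higher and 17.9% lower. The split was 25 and 25 with median centring and 26 and 26 with edgeR on the recovered reads. With the replicate number as a block it was 33 and 43, and without replicate 3 it was 31 and 36. The shares of all regions under those fits were not taken. Start windows held 4 rises (Rab8a, Rab10, Rab12 and Rab32) and 4 falls (Rab3a, Rab31, Rab40c and Rab43) among 41 regions. Those of Rab8a and Rab3a also belonged to neighbouring genes. Elsewhere in gene bodies 8 rose and 18 fell of 69, and outside genes 8 rose and 8 fell of 31. The largest rises not yet given were at Rab3c, where chr13:110276111-110279717 was at least 110-fold higher, at Rab32, where chr10:10529949-10533694 was at least 28.1-fold higher, and at Rab30, where chr7:92745441-92747185 was at least 18.4-fold higher. The Rab32 region chr10:10536882-10540627 rose by 3.15, a call that was lost on leaving out untreated library 3 or LPS library 1 (adjusted p = 0.0612 and 0.0743). The region chr8:123774728-123784046 of Rab4a (3.72) also rose, a call that was lost on leaving out untreated library 3 or LPS library 2 (adjusted p = 0.0506 and 0.0888) and without replicate 3 of every group (0.143). Large falls in gene bodies were at Rab37 (chr11:115113345-115122449, -4.89), Rab39 (chr9:53698599-53703560, -4.72), Rab6b (chr9:103148234-103149979, at least 12.2-fold lower), Rab8b (chr9:66855646-66859470, at least 11.2-fold lower) and Rab40c (chr17:25894927-25896862, at least 9.12-fold lower).

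Few Rab genes were called with IL-10 against LPS alone, in shares near those of all genes. A gene that was not called is not shown to be unchanged. With continuous IL-10, Rab31 and Rab4a exceeded LPS alone and Rab22a fell short of it, 2 and 1 of 53 genes, where 2.59% of all genes were higher and 3.17% lower. With late IL-10, the same 2 genes were higher and none was lower, where 3.19% of all genes were higher and 0.26% lower. With limma's unadjusted p under 0.05, 3 Rab genes were lower with late IL-10, and the share of all genes at that threshold was not taken. The median over Rab genes was 0.08 with continuous and -0.16 with late IL-10, against 0.03 and -0.16 over all genes. With the block, 3 Rab genes were higher and 2 lower with continuous IL-10, adding Rab43 (adjusted p = 0.0432) and Rab38 (adjusted p = 0.00118), and 2 were higher and 2 lower with late IL-10, adding Rab32 (-1.20, adjusted p = 0.0298) and Rab33a (-1.18, adjusted p = 0.0286). Without replicate 3 of every group, 5 were higher and 3 lower with continuous IL-10, and 3 were higher and 2 lower with late IL-10. The count of 3 with continuous IL-10 was 1 without LPS library 1 or 2 or continuous IL-10 library 1 or 2, and 5 without LPS library 3. Both comparisons use the same LPS libraries, so they are not independent of each other or of the LPS comparison.

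**Figure D3:**
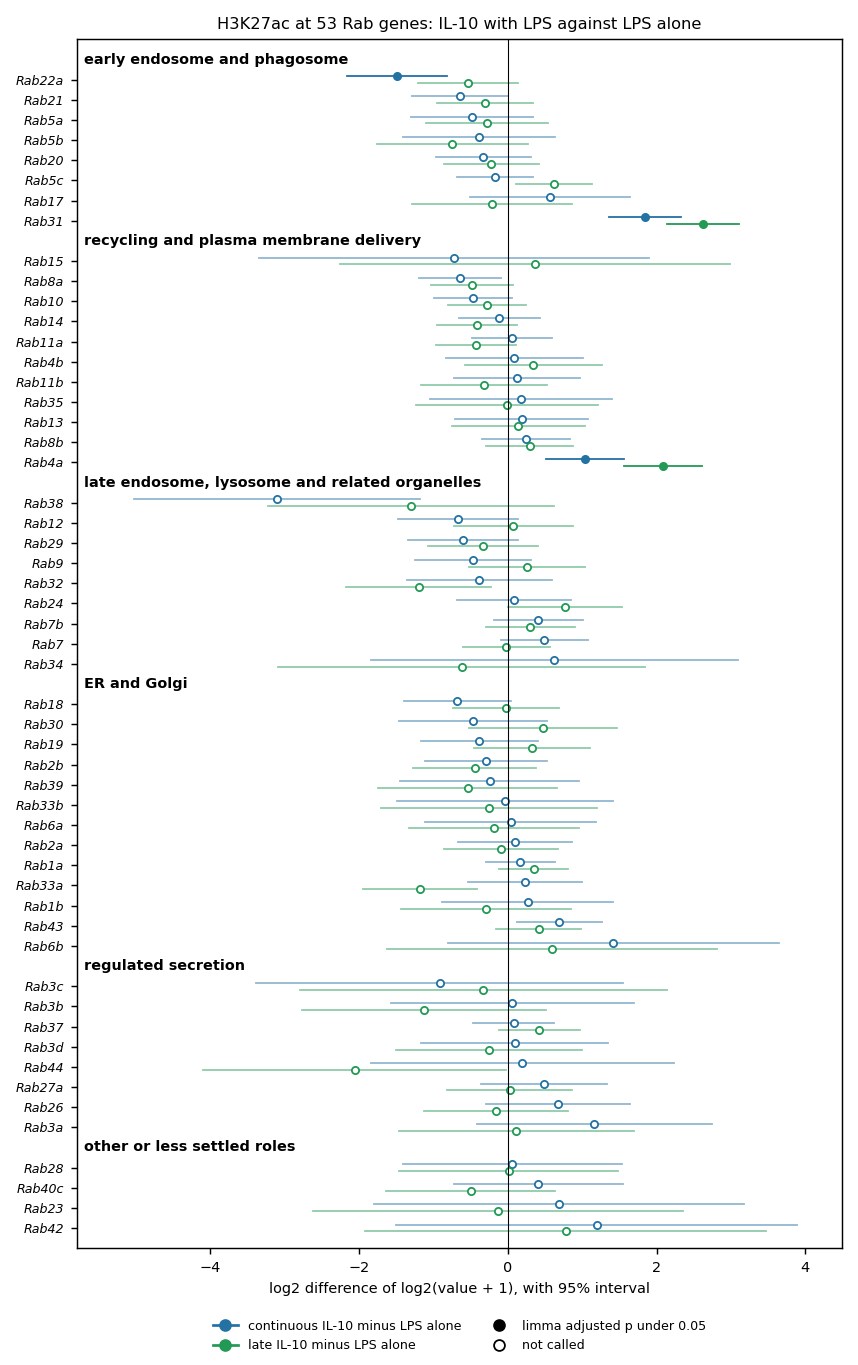
Log2 difference of H3K27ac (on the log2(value + 1) scale) at the 53 Rab genes for continuous and late IL-10, each minus LPS alone. Points are limma estimates, bars are 95% intervals, and filled points passed an adjusted p under 0.05. Rab31 (1.85 and 2.62) and Rab4a (1.03 and 2.09) are filled for both schedules.

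Rab31 was the Rab gene whose IL-10 calls held under every alternative run. Its values were 6013, 4145 and 3894 with continuous IL-10, overlapping the untreated 3528 to 4256, and 8781, 8804 and 6277 with late IL-10. All 6 libraries were above the 3 with LPS alone, and all late libraries were above the untreated ones. Against LPS alone the log2 differences were 1.85 (SE 0.22, adjusted p = 7.47e-04) and 2.62 (SE 0.22, adjusted p = 4.44e-05). Late IL-10 exceeded continuous IL-10 by 0.77 with no overlap, which missed the threshold (adjusted p = 0.0844). It passed with the block (adjusted p = 0.0181), without late IL-10 library 3 (0.0360) and without replicate 3 of every group (0.0256).

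The Rab31 gene lies on chr17:65651726-65772752, minus strand, and its 8 regions all overlap it. With LPS 6 of them fell. The call for the fall at chr17:65717521-65719661 (-2.72, adjusted p = 0.0350) was lost in 10 of 15 alternatives. Among them were leaving out untreated library 1, 2 or 3 or LPS library 2 or 3 (adjusted p = 0.116, 0.0643, 0.0632, 0.107 and 0.0896), edgeR (0.145) and DESeq2 (0.0675). The other falls held under every alternative run. Late IL-10 raised 6 and continuous IL-10 raised 3 above LPS alone, as the plot of Rab31 regions along the gene shows. The widest, chr17:65722430-65751986, was at 1904, 2162 and 2124 untreated, 1072, 946 and 786 under LPS alone, 4718, 3238 and 2843 under continuous IL-10, and 7242, 7339 and 4815 under late IL-10. Neither IL-10 group overlapped the LPS or the untreated group there, and the differences from LPS alone were 1.92 (adjusted p = 0.00102) and 2.77 (adjusted p = 7.09e-05). Both calls held without each library. The start-window region, chr17:65763430-65777094, fell from 691, 565 and 950 to 128, 168 and 466 with LPS (-1.73, adjusted p = 0.00648). It was back at 762, 680 and 740 under continuous IL-10 and 741, 643 and 760 under late IL-10. Those differences from LPS alone were 1.75 and 1.72 (adjusted p = 0.0272 and 0.0398), and each call was lost on leaving out any 1 of the 6 libraries compared, LPS library 3 excepted, highest adjusted p = 0.111 and 0.149.

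Farther into Rab31, chr17:65717521-65719661 was at 17.7, 1.68 and 0.464 with LPS, 191, 103 and 69.0 under continuous IL-10 and 120, 73.5 and 79.7 under late IL-10. These were rises of 4.74 (adjusted p = 0.00957) and 4.42 (adjusted p = 0.0156) over LPS alone. The second was lost on leaving out LPS library 2 or late IL-10 library 1 or 2 (adjusted p = 0.0591, 0.0782 and 0.0538) and without replicate 3 of every group (0.0810). At 3 regions the late schedule passed the test and the continuous one did not. At chr17:65698188-65700382 the late libraries were at 49.3, 122 and 71.7, at least 19.7-fold above LPS alone (adjusted p = 0.00630), and at chr17:65705900-65710725 at 132, 120 and 74.4, at least 26.5-fold above (adjusted p = 0.0179). Continuous IL-10 was at 10.1, 11.4 and 19.7 and at 13.5, 1.27 and 15.8 there. Late against continuous IL-10 did not pass at either (adjusted p = 0.156 and 0.114), so the schedules are not shown to differ. The call for the latter region was lost on leaving out LPS library 2 (at the threshold itself) or late IL-10 library 1 or 2 (adjusted p = 0.0755 and 0.0674), without replicate 3 of every group (0.0892) and with edgeR (0.0777). Near the gene's end, chr17:65655905-65667339 rose by 4.19 with late IL-10 (adjusted p = 0.0196). That call was lost on leaving out late IL-10 library 1 or 2 (0.0802 and 0.0762) and without replicate 3 of every group (0.0804). Continuous IL-10 missed the threshold there (2.78, adjusted p = 0.0909) and passed without LPS library 3 (0.0304), and late against continuous IL-10 did not pass (0.480).

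**Figure D4:**
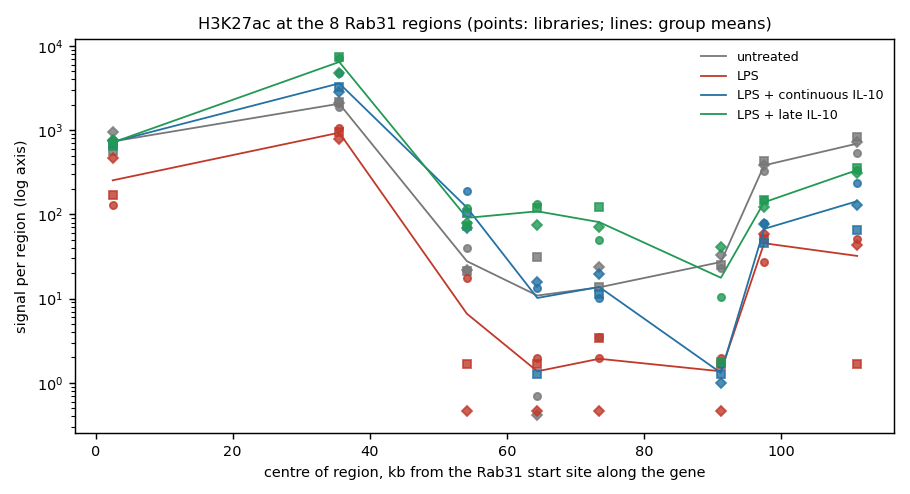
H3K27ac signal (log axis) at the 8 Rab31 regions against the distance of each region's centre from the start site, in kb along the gene. Points are libraries (circle, square, diamond for replicates 1, 2 and 3) and lines join group means. LPS alone has the lowest mean at 7 of the 8 regions, and late IL-10 lies above continuous IL-10 at the widest region, whose centre is 35.5 kb in.

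Rab4a took the same direction in each step. Its values were 2044, 1522 and 1879 under continuous IL-10 and 3989, 4107 and 3210 under late IL-10, against 740, 1037 and 888 with LPS alone. No group overlapped another. Late IL-10 exceeded LPS alone by 2.09 (SE 0.24, adjusted p = 3.70e-04), which held without each library. Continuous IL-10 exceeded it by 1.03 (adjusted p = 0.0252), a call that was lost on leaving out LPS library 1 or 2 or continuous IL-10 library 1, 2 or 3 (adjusted p = 0.119, 0.0580, 0.0986, 0.0590 and 0.0843). It also ended with median centring (0.0575) and edgeR (0.0625). The distant region chr8:123743157-123771404 again carried the values, at 1998, 1409 and 1699 with continuous and 3792, 3858 and 2926 with late IL-10. Against LPS alone that region itself passed the test with late IL-10 and did not pass with continuous IL-10. The region at the gene itself was at 20.2, 25.4 and 99.5 and at 1.76, 3.58 and 57.6, and overlapping regions alone gave -1.31 for late IL-10 (adjusted p = 0.910).

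Rab22a was the 1 Rab gene lower with continuous IL-10, at 287, 304 and 370 against 883, 953 and 856 with LPS alone (-1.49, adjusted p = 0.0149). All continuous libraries were below all LPS libraries, and the call was lost on leaving out LPS library 1 or 2 or continuous IL-10 library 1 or 2 (adjusted p = 0.0581, 0.0738, 0.0540 and 0.0652). With late IL-10 it was at 794, 559 and 530 (-0.54, adjusted p = 0.604). Rab38 had a larger but more variable difference with continuous IL-10, at 55.6, 119 and 17.7 against 931, 724 and 120 (-3.11, adjusted p = 0.0607). It passed without LPS library 3 (adjusted p = 0.00647) and with the block. Rab10, Rab32 and Rab20 were not called with either schedule: their differences from LPS alone were -0.47, -0.38 and -0.33 under continuous IL-10 and -0.28, -1.20 and -0.22 under late IL-10. Rab32 passed with late IL-10 under the block (adjusted p = 0.0298), without LPS library 3 (0.0437) and without replicate 3 of every group (0.0422). The differences of Rab5a, Rab7, Rab11a and Rab27a were -0.48, 0.49, 0.05 and 0.48 under continuous IL-10 and -0.28, -0.02, -0.43 and 0.02 under late IL-10, none called. Rab7 with continuous IL-10 passed with DESeq2 alone among the alternatives run (adjusted p = 0.0439).

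Per region, 6 Rab regions were higher and 0 lower with continuous IL-10, of 141, where 3.28% of all regions were higher and 3.24% lower (limma; 13 and 6 where unadjusted p was under 0.05). With the block the split was 11 and 5, with DESeq2 9 and 6, and without replicate 3 of every group 8 and 6. No share of all regions was taken for such splits or at unadjusted p. With late IL-10, 11 were higher and 0 lower, where 3.14% were higher and 0.396% lower (limma; 18 and 6 unadjusted; 7 and 0 with edgeR). Rab31 alone held 6 of the 11 regions higher with late IL-10 and 3 of the 6 with continuous IL-10, so these are not counts of separate genes. Besides Rab31, the regions called with both schedules were at Rab1a, Rab12 and Rab7b. The Rab1a region 22694 bp upstream was at 573, 611 and 856 with continuous and 837, 584 and 979 with late IL-10, up from 175, 108 and 144 with LPS. These rises of 2.26 (adjusted p = 0.00182) and 2.48 (adjusted p = 8.84e-04) held without each library, and under both schedules the values overlapped the untreated range of 733 to 924. The upstream Rab12 region, at the floor with LPS alone, was at 137, 92.7 and 99.5 with continuous and 166, 122 and 57.6 with late IL-10, at least 26.7-fold and 28.0-fold higher (adjusted p = 0.00137 and 0.00133). Both exceeded its untreated values of 35.3, 41.6 and 10.9. The start-window region of Rab12 was not called with either schedule.

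**Figure D5:**
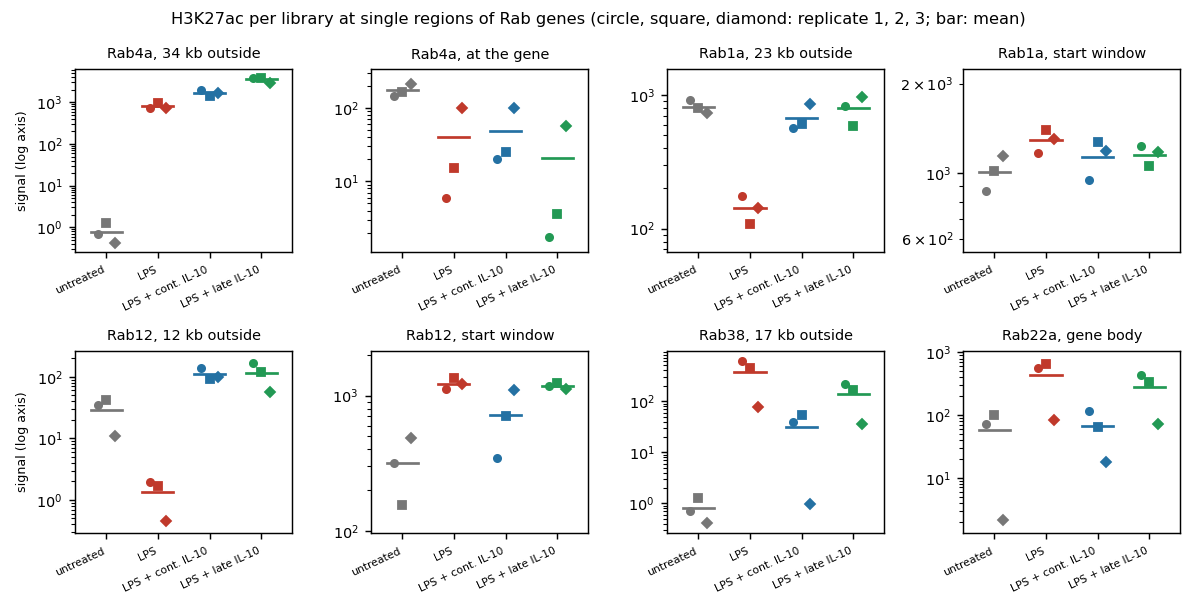
H3K27ac signal per library (log axis) at 8 single regions of Rab genes, by group. Circles, squares and diamonds are replicates 1, 2 and 3, and bars are group means. The distant Rab4a region goes from the floor to 730 to 943 with LPS and 2926 to 3858 with late IL-10, while the upstream Rab1a and Rab12 regions are lowest with LPS alone.

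At Rab7b, chr1:131714728-131718707 was at 1.97, 1.68 and 4.64 with LPS, 33.7, 36.8 and 42.4 under continuous IL-10 and 54.6, 37.6 and 23.9 under late IL-10. Every IL-10 library was above every LPS library, and the rises were 3.44 (adjusted p = 0.0147) and 3.41 (adjusted p = 0.0182). The first call was lost on leaving out LPS library 1 or 2 (adjusted p = 0.0523 and 0.0626) and the second without LPS library 1 or 2 or late IL-10 library 1 or 2 (0.0598, 0.0724, 0.0775 and 0.0617). A neighbouring region, chr1:131712093-131713244, at the floor with LPS alone, was called with late IL-10, at least 7.56-fold higher (adjusted p = 0.0410). That call was lost on leaving out LPS library 1, 2 or 3 or late IL-10 library 1 or 2, highest adjusted p = 0.171. The summed Rab7b value, 506, 511 and 572 with continuous and 400, 550 and 538 with late IL-10, was not called against LPS alone (0.41 and 0.30).

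Late and continuous IL-10 were compared directly. Rab4a was the 1 Rab gene called, higher with late IL-10 by 1.06 (adjusted p = 0.0418), of 53 genes, where 1.88% of all genes were higher and 0.668% lower. That call was lost on leaving out any 1 of continuous IL-10 libraries 1, 2 and 3 and late IL-10 libraries 1 and 2 (adjusted p = 0.0749, 0.181, 0.108, 0.223 and 0.199). It ended with median centring (0.0708) and edgeR (0.0599), and with regions overlapping the gene alone Rab4a was lower by a difference of -2.08 (adjusted p = 0.464). With the block 5 Rab genes were higher and 1 lower. Besides Rab4a, Rab31, Rab22a (adjusted p = 0.0289), Rab38 (0.0362) and Rab5c (0.0192) were higher with late IL-10 and Rab33a (0.00800) was lower. Without late IL-10 library 3 the count was 5, and without replicate 3 of every group 8 were higher and 4 lower. No Rab region passed the test in this comparison, where 1.86% of all regions were higher and 0.852% lower. Unadjusted p-values of limma fell under 0.05 at 13 higher and 8 lower regions, with edgeR 0 passed, and with the block 9 were higher and 4 lower. The shares of all regions at those settings were not taken.

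The proteins that regulate Rab proteins and act below them were taken as 4 lists, of which 126 genes were tested, and 19 rose (15.1%) and 23 fell (18.3%) with LPS (limma), where 14.2% of all genes were higher and 13.3% lower. The share that rose is near that of all genes. With the block, 29 rose and 43 fell, and without replicate 3 of every group 34 rose and 40 fell. The shares of all genes under those fits were not taken. Of 37 exchange factor genes, 4 rose and 4 fell, with a median of -0.17 beside -0.11 over all genes. Rin2, an exchange factor for Rab5 proteins, rose from 1519, 1733 and 1767 to 8213, 8389 and 3654 (1.92, adjusted p = 0.00121), and Dennd1a, for Rab35, by 1.34. Rab3il1, an exchange factor for Rab8 proteins, fell from 1984, 1798 and 2792 to 211, 276 and 642 (-2.68, adjusted p = 2.27e-04), and Dennd4a by 1.13. Of 33 GTPase-activating protein genes, 3 rose and 6 fell, with a median of -0.59. Evi5, which acts on Rab11 proteins, rose by 3.47, Tbc1d13 by 0.99, while Tbc1d2 fell by 2.46, Tbc1d22a fell by 2.45 and Usp6nl fell by 2.22. Of 7 genes of prenylation and GDP dissociation, 2 fell and none rose. Gdi2, a GDP dissociation inhibitor, fell by 1.67 (adjusted p = 6.02e-04). Of 49 effector and tether genes, 12 rose and 11 fell, with a median of 0.15, among them Appl1, a Rab5 effector (3.04), and Rab11fip1, a Rab11 effector (2.97), which rose, and Bicd1 (-2.86) and Vps39 (-2.33), which fell. The calls named so far held without each library in turn. Called, but less stable, were Rab3ip (1.21), Tbc1d15 (1.12), Rabep2 (2.48), Dennd4c (-1.16), Mical1 (-4.59) and Rabggta (-3.99). The calls for Rab3ip, Dennd4c, Tbc1d15 and Rabep2 was lost on leaving out untreated library 1 or 2 or LPS library 1 or 2, and that for Rab3ip also without LPS library 3, highest adjusted p = 0.157, 0.0888, 0.202 and 0.121. Those for Mical1 and Rabggta was lost on leaving out untreated library 1 or 3 or LPS library 1, and that for Mical1 also without LPS library 2, up to 0.0822 and 0.0704.

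With continuous IL-10, 6 of the 126 regulator genes exceeded LPS alone and 4 fell short of it, where 2.59% of all genes were higher and 3.17% lower. The counts were 11 and 12 with the block and 5 and 0 with median centring. No share of all genes was taken for such counts or at unadjusted p. With late IL-10, 7 were higher and 0 lower, where 3.19% of all genes were higher and 0.26% lower (limma; unadjusted p under 0.05 at 6 lower; 2 lower with the block). Rab3il1 was at 1706, 1537 and 2393 with continuous and 1555, 1905 and 2400 with late IL-10, against 211, 276 and 642 with LPS alone. Every IL-10 library was above every LPS library, and the rises were 2.46 (adjusted p = 0.00279) and 2.52 (adjusted p = 0.00175). Rab11fip5, a Rab11 effector, rose from 1421, 1415 and 1723 to 5151, 5324 and 6978 with continuous and 5849, 5167 and 5910 with late IL-10 (1.93 and 1.90, adjusted p = 3.58e-04 and 2.29e-04). Tbc1d14, a Rab11-binding protein of the GTPase-activating protein family, rose by 1.72 with late IL-10 (adjusted p = 4.58e-04). The calls for Rab3il1, Rab11fip5 and Tbc1d14 with late IL-10 held without each library. With continuous IL-10 Tbc1d14 rose by 1.02 (adjusted p = 0.0124), a call that was lost on leaving out LPS library 1 or 2 or continuous IL-10 library 3 (adjusted p = 0.0603, 0.0579 and 0.0603). Tbc1d1 rose by 1.37 and 1.36 with the 2 schedules, calls that was lost on leaving out LPS library 1 (0.0620 and 0.0668), and the second also without late IL-10 library 2 (0.0618). Also called with continuous IL-10 were Tbc1d22a (1.10), Appl2 (1.39), Tbc1d4 (-1.75), Tbc1d15 (-1.49), Exoc6 (-1.56) and Dennd1b (-1.47). Each of these calls was lost on leaving out LPS library 1 or 2 or continuous IL-10 library 1 or 2, highest adjusted p = 0.185, and those for Tbc1d22a, Appl2, Tbc1d15 and Dennd1b also without continuous IL-10 library 3. With late IL-10, Tbc1d2 (2.59) and Optn (2.14), a Rab8 effector, were called. The first call was lost on leaving out LPS library 1 or 2 or late IL-10 library 1 or 2, and the second without LPS library 2 or late IL-10 library 1 or 2, up to 0.0845 and 0.0773. Between the schedules, 2 regulators were higher and 1 lower with late IL-10, where 1.88% of all genes were higher and 0.668% lower, or 14 and 9 with the block. Rin3, an exchange factor for Rab5 proteins and Rab31, was at 4484, 6688 and 3993 with late against 867, 1339 and 1870 with continuous IL-10, with no overlap (1.93, adjusted p = 0.0150). Its call was lost on leaving out continuous IL-10 library 2 or late IL-10 library 1 or 2 (adjusted p = 0.0751, 0.0957 and 0.110). Dennd1b (1.59) and Appl2 (-1.44) were called as well, and both calls were lost on leaving out any 1 of continuous IL-10 libraries 1, 2 and 3 and late IL-10 libraries 1 and 2, up to 0.223 and 0.260.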

How the data were processed

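Rab genes, regulator lists, role groups and the naming rule were chosen with earlier results of these data known. H3K27ac ChIP-seq libraries numbered 12, without the input library. The submitters' processing notes name DiffBind, MACS2, Bowtie2, Trim Galore and build mm10, with no role or version recorded. For every consensus region, the authors deposited 1 signal value in each library. All values were whole multiples of 1 read's worth (tolerance 0.0001), so the deposited signal is a scaled read count with a floor of 1 read, and whether background reads were subtracted is not given.

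Regions went to all protein-coding genes they overlapped in a RefSeq table of GRCm38.p6, or else to the nearest 1 within 100 kb, and the promoter windows came from RefSeq on the same assembly (none for 11 Rab genes). Values, summed per gene, were tested with limma 3.58.1 in R 4.3.3 on log2(value + 1) over all 12 libraries, with trend and robust moderation and group as the only term. The filter kept features whose mean log2 value exceeded percentile 10, and p-values were adjusted over all features by the Benjamini-Hochberg method. Unless another tool is named, every adjusted p is limma's. The test was also run on simulated counts. These held no replicate or pool effect, so that run cannot show how the test behaves with correlated libraries. An exact permutation test of 3 against 3 cannot go below p = 0.1 and was not used. A group at or under 3 reads per region in every library was set to 3 reads for lower bounds of fold.

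Alternatives were pseudocounts 0.25 and 16, no filter, median centring, each library left out, only the groups compared, edgeR 4.0.16 and DESeq2 1.42.0 on the recovered reads, only overlapping or unshared regions, the replicate block and, added after the data were seen, leaving out replicate 3. Deviations of same-numbered libraries correlated at 0.149 to 0.712 (12 pairs, 9 highest with their own number), and the labels name 3 pools. The numbers were therefore taken as pairs in the replicate block, and the main test ignored this pairing. Called Rab genes are named, up to the 12 largest per comparison and direction, with Rab5a, Rab7, Rab10, Rab11a, Rab20, Rab27a and Rab32 in any case, the 10 largest called regions per direction, and the 3 largest called regulators per list and direction. Other genes were chosen after their values were seen. Rab1a, Rab2b, Rab29 and genes passing only under the block are among these.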

Additional observations from a re-analysis of the deposited data

Results flagged for a closer look

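Rab4a differed between the IL-10 schedules: with LPS, late IL-10 exceeded continuous IL-10 by 1.06 on the log2 scale (limma adjusted p = 0.0418), with 3 of 3 late libraries above every continuous one. The call rests on the region 34442 bp outside the gene, which did not itself pass, and ended without 5 of the 6 libraries compared.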

How the results depend on the processing

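Of 26 calls at named Rab genes, 10 kept direction and side of the threshold under every alternative run, as did 39 of 67 calls at Rab regions. The losses of calls listed above are not complete. Of 17 alternatives, the LPS call was lost in 10 at Rab20, 7 at Rab7, 5 at Rab22a and 5 at Rab43. The Rab4a call with continuous IL-10 was lost in 9. Rab genes called with continuous IL-10 numbered 5 with the replicate block and 8 with DESeq2. With late IL-10 they numbered 4 with the block and 1 with overlapping regions alone. Late against continuous IL-10 gave 0 with median centring, only the groups compared, edgeR or overlapping regions, 6 with the block and 4 with DESeq2. Rab regions numbered 76 with LPS and the block. With continuous IL-10 they were 16 with the block, 3 with only the groups compared and 15 with DESeq2, and with late IL-10 4 with only the groups compared and 7 with edgeR. Between schedules they were 3 with pseudocount 16, 1 without the filter, 13 with the block and 10 with DESeq2. Regulators numbered 72 with LPS and the block. With continuous IL-10 they were 5 with centring, 23 with the block, 4 with only the groups compared, 6 with edgeR and 22 with DESeq2, with late IL-10 13 with the block and 4 with only the groups compared, and between schedules 23, 0 and 17 with the block, only the groups compared and DESeq2. The cause was not tested, and shares over all genes or regions were not taken under these alternatives. The block ended no call at a Rab gene.

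The ranges of counts cover each library left out in turn and also replicate 3 of every group left out together. In the order LPS, continuous IL-10, late IL-10 and late against continuous IL-10, Rab gene counts ran from 12 to 25, 1 to 8, 2 to 5 and 0 to 12. Region counts ran from 34 to 67, 4 to 15, 5 to 11 and 0 to 15, and regulator counts from 27 to 74, 2 to 29, 3 to 15 and 0 to 25.

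Directions turned at some uncalled genes. With single libraries left out, Rab11a and Rab32 with continuous IL-10 ran from -0.022 to 0.138 and from -0.826 to 0.0186. With late IL-10, Rab20 ran from -0.478 to 0.0576, Rab27a from -0.14 to 0.246, Rab5a from -0.440 to 0.0134 and Rab7 from -0.165 to 0.18, and Rab27a with LPS from -0.30 to 0.561. Rab27a with LPS was -0.00346 with pseudocount 16. With late IL-10, Rab20 was 0.16 with unshared regions, and Rab7 was 0.0955 with centring, 0.0475 with edgeR, 0.0723 with DESeq2 and 0.0301 with overlapping regions. Among called genes, Rab37 was 0.41 and Rab8a -0.00549 with unshared regions. With overlapping regions, Rab4a was -2.95 with LPS, -1.31 with late IL-10 and -2.08 between schedules. Leaving out the distant region by construction, that alternative holds 1 Rab4a region. Median reads per region between 18 and 89 limit what weak regions can show.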
